A study of Mus musculus with 18 samples.

Results

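The 42 genes described here encode proteins of autophagy and of the lysosome, and they were measured in livers of mice with and without the bile acid receptor FXR. Members were chosen by gene symbol from a list of 19 autophagy genes and 23 lysosomal genes, and all 42 were found among the 12394 genes of the array. Dnase2a was put on the list because it fell with the FXR agonist, and since that choice was not limited to a genotype, its values with the agonist are a description here in all genotypes and support nothing. The other members were listed for their function. Livers came from 18 male C57BL/6J mice aged 10 to 16 weeks, 1 array per mouse and 3 arrays per group. The genotypes were WT, Liver FXR KO and FXR WB KO, and each was given Vehicle or GW4064, a synthetic FXR agonist, by oral gavage. In Liver FXR KO mice, albumin Cre removed the floxed Nr1h4 gene, which encodes FXR, from hepatocytes, so other cells of the liver and the intestine could still carry it. FXR WB KO mice lacked the gene in the whole body. According to the labels, all treated mice were given 2 doses of 150 mg/kg and the livers were taken 2 hours after the last, whereas the methods describe only the WT mice, with 3 lower doses and an overnight fast. Both descriptions are given because the values do not decide between them.

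Autophagy encloses parts of the cytoplasm in a double membrane, which then fuses with the lysosome, where acid hydrolases break the cargo down. The ULK kinases and the Beclin 1 lipid kinase complex start the membrane, ubiquitin-like conjugation attaches LC3 family proteins to it, and cargo receptors tether what is to be degraded. In hepatocytes this process supplies amino acids and lipids during fasting. FXR is a nuclear receptor that senses bile acids, which return to the liver after a meal.

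The values are log2 expression levels from RMA, on which a difference of 1 is a doubling, and each gene was represented by its brightest probe set. Nr1h4 read between 8.83 and 9.39 in the 6 WT arrays and between 3.98 and 4.69 in the 12 knockout arrays, so the targeted gene fitted its labels. The tissue label also held, with Alb, which encodes albumin, between 14.78 and 14.97. The arrays of WT GW4064 replicate 1 and FXR WB KO GW4064 replicate 3 stood apart, with the widest spread of relative expression (interquartile range 0.259 and 0.231, against 0.197 or less in all others). Levels came from whole liver, in which fewer cells of a type and less RNA per cell cannot be told apart. Nothing in the labels says more about how the 3 mice of a group were kept or bred, so p-values measure the spread between these samples.

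RefSeq promoter windows, 250 bases before to 50 bases after the start of transcription (GRCm38.p6), were available for 34 of the 42 members, and not for Atg12, Atg16l1, Becn1, Ctsb, Ctsh, Map1lc3a, Npc1 and Pik3c3. They were searched on both strands for CACGTG (the E-box), for TCACGTGA (the core of the CLEAR element that TFEB, the main activator of lysosomal genes, binds, and which contains the E-box), for AGGTCA (the single element that nuclear receptors bind) and for IR1, the inverted repeat of that element with 1 base between, which FXR binds with RXR. The E-box was in windows of 13 of the 34 members (38.2%) and of 8.09% of the 27025 genes in the table. The CLEAR core was found for 7 members (20.6%), against 1.12% of all genes, and 6 of these 7 are lysosomal (Atp6v0d1, Atp6v1a, Ctsa, Ctsd, Gla and Mcoln1), with Atg3 as the remaining one. That is 6 of the 20 lysosomal members with a window (30%), so most of them lack it. Since TFEB activates lysosomal genes and the list was drawn up by function, Dnase2a apart, these shares are a description and not a test. AGGTCA was found for 9 members (26.5%), against 18.1% of all genes. An exact IR1 was in the window of no member and of 3 genes in all (0.0111%). A match is a string of letters and not a bound site, and an absent match says nothing about a factor. The windows below are shown because Dnase2a had the largest difference of any member and holds none of these motifs, Gla and Ctsd are 2 of the members that hold the CLEAR core, and Atg10 is the member that passed the test in whole-body knockouts. Capitals mark the CLEAR core in Gla and Ctsd and AGGTCA in Atg10, and each line is 5′ to 3′ on the strand of the gene (+ for Dnase2a, - for the others).
Dnase2a, chr8:84908505-84908804: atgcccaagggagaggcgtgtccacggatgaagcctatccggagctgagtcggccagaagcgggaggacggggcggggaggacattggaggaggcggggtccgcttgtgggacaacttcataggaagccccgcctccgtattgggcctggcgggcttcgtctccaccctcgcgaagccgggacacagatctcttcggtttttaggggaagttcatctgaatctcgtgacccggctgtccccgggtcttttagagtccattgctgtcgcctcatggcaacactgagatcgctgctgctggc
Gla, chrX:134600956-134601255: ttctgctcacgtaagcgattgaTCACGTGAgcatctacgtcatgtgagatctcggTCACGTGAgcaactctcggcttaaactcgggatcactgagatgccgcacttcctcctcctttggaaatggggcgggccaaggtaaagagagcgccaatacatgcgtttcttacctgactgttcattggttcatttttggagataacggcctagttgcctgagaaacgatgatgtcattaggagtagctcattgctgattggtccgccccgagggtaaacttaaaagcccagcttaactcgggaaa
Ctsd, chr7:142387778-142388077: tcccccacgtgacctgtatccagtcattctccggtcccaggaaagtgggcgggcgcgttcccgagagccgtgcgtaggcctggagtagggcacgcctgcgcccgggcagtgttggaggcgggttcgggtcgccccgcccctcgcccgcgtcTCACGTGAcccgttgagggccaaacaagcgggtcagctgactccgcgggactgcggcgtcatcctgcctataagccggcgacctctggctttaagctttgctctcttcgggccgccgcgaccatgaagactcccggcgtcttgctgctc
Atg10, chr13:91223938-91224237: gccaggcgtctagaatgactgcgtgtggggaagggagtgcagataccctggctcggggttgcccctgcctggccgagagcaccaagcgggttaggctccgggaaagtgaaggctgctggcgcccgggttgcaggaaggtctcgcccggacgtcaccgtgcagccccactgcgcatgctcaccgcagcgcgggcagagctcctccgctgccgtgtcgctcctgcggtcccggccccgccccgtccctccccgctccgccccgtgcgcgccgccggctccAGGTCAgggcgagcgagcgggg

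In Gla, which encodes alpha-galactosidase A, the CLEAR core occurred at 2 places, the first at position -228 from the start of transcription, and in Ctsd, which encodes cathepsin D, at position -99. In Atg10 the capitals begin at position 29, counted from a start of transcription that lies within the gene bounds given below and not at their end. The 7 members with the CLEAR core had medians close to 0. Their median log2 difference with GW4064 was 0.05 in WT, 0.09 in Liver FXR KO and -0.01 in FXR WB KO, and with Vehicle it was -0.07 in Liver FXR KO and -0.05 in FXR WB KO against WT. None of the 7 passed the test in any of these comparisons. Tfeb itself, which encodes the factor that binds the element, read between 6.69 and 7.05 over all 18 arrays, and its 6 group means spanned 0.13, the smallest span of any member.

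Whether the autophagy and lysosome genes respond to FXR was asked in 2 ways, by GW4064 against Vehicle within each genotype and by each knockout against WT with Vehicle. In WT livers, GW4064 left 41 of 42 members short of the threshold (adjusted p under 0.05, limma with Benjamini-Hochberg adjustment over all genes), and the one past it was Dnase2a, the member listed for this fall. The threshold was passed by 0.194% of all genes in this comparison. At an unadjusted p under 0.05, 3 members were higher and 2 lower, against 12.6% of all genes. Their median log2 difference was -0.04, and that of all genes was -0.0040. Apart from Dnase2a, the differences ran from -0.31 for Gabarapl1 to 0.35 for Neu1.

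With GW4064, no member passed in Liver FXR KO or in FXR WB KO livers (limma), where 0% of all genes passed. At an unadjusted p under 0.05 there were 2 members in Liver FXR KO, both lower (5.02% of all genes), and 5 in FXR WB KO, 1 higher and 4 lower (6.25% of all genes), while the methods' t-test gave 3 and 1 members at that level. Member medians were 0.01 and 0.0041, respectively. The GW4064 effect differed between WT and Liver FXR KO for 0 members (0% of all genes) and between WT and FXR WB KO for 0 members (0% of all genes) by limma's interaction test, with 4 and 5 members at an unadjusted p under 0.05 (7.46% and 8.21% of all genes). Between the 2 knockouts, a comparison added after the values were seen, it also differed for 0 members (0% of all genes), with 4 at an unadjusted p under 0.05 (4.87% of all genes).

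With Vehicle, 1 of 42 members passed in Liver FXR KO against WT, where Becn1 rose, and 0.879% of all genes passed. With the mean of each gene's probe sets, the member that passed was Wipi1 and not Becn1. In FXR WB KO against WT, 1 member passed, Atg10, which rose, and 1.14% of all genes did. No member passed between the 2 knockouts (limma, smallest adjusted p = 0.0687, Becn1), where 0.678% of all genes did. At an unadjusted p under 0.05 by limma the members numbered 7, 5 and 7 in these 3 comparisons, against 12.6%, 13.3% and 12.2% of all genes. By the methods' t-test they numbered 8, 6 and 7, and no share of all genes by that test is set beside them. The median member difference was -0.03 for Liver FXR KO against WT, 0.0081 for FXR WB KO against WT and 0.01 between the knockouts. Of the 42 members, 41 differed by less than 0.5 in size in each of these 3 comparisons.

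A test of any difference among the 6 groups found 6 of 42 members (limma's moderated F, 6.08% of all genes), namely Dnase2a, Atg10, Becn1, Lipa, Neu1 and Npc1, and 13 at an unadjusted p under 0.05 (22.1% of all genes). The call of Dnase2a rests in part on the arrays it was listed for. For Lipa, Neu1 and Npc1 the adjusted p-values were 0.0477, 0.0486 and 0.0496, and each was lost when any of 15 of the 18 arrays was left out. The 6 group means spanned more than 0.5 for 10 members (23.8%) and for 12.1% of all genes. The spread within groups was about equal (median SD 0.130 for members and 0.131 for all genes). The 10 include Dnase2a, which was listed for its fall. Of the 10, Ctsl, Ctss and Hexa were highest with GW4064 in FXR WB KO, the group of replicate 3, which stood apart. For Becn1 and Neu1 the span was as low as 0.27 and 0.36 in other settings. No weight is given to this share. The median level of the members was 9.20 and that of all genes 6.40, so the shares of all genes come from a dimmer set. Levels of different probe sets are otherwise not compared.

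**Figure D1:**
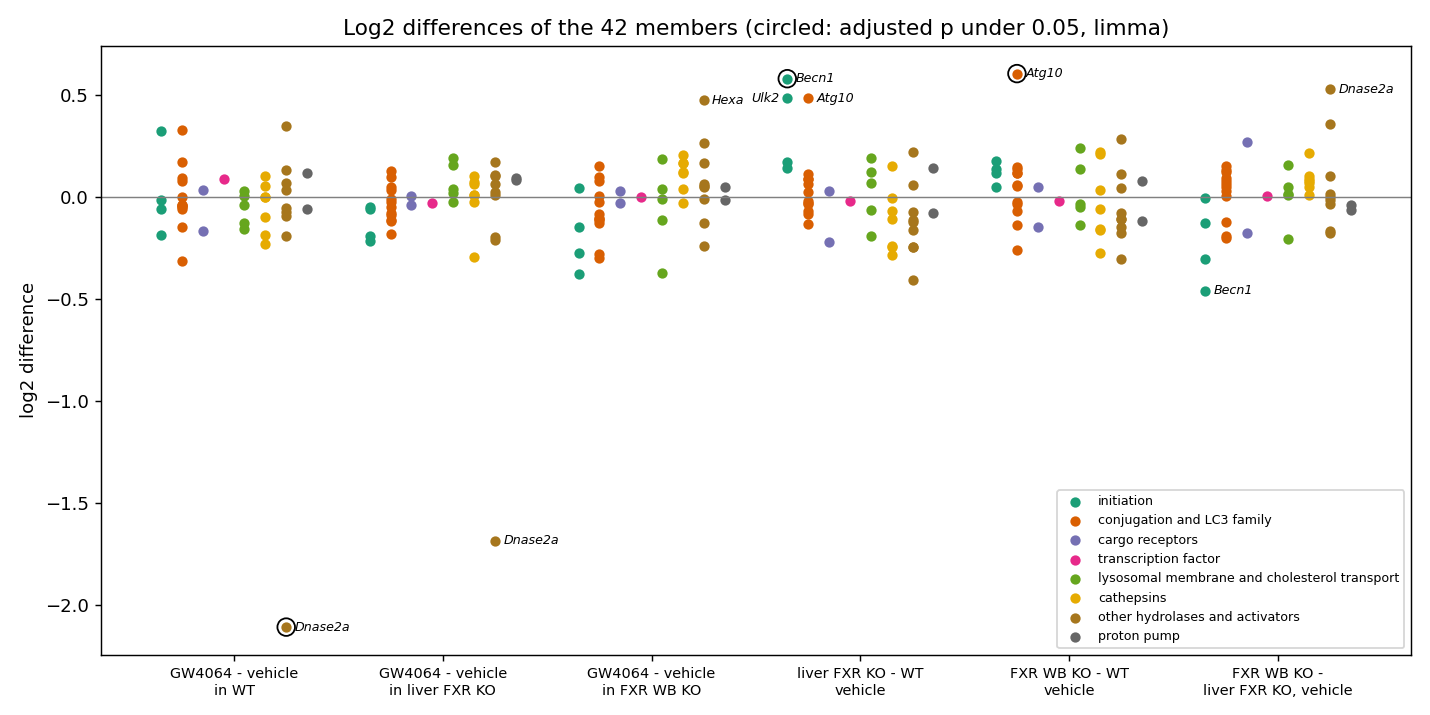
Log2 differences (vertical axis) of the 42 members in 6 comparisons (horizontal axis), 1 point per gene, coloured by role, with circles around points with an adjusted p under 0.05. Most points lie close to 0, and Dnase2a lies at -2.11 in WT and -1.69 in Liver FXR KO livers.

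Dnase2a encodes an acid endonuclease that digests DNA in lysosomes (GRCm38.p6 chromosome 8, 84908755 to 84911703). It read 10.68, 11.37 and 10.82 in the WT Vehicle arrays and 7.93, 8.75 and 9.87 in the WT GW4064 arrays. All GW4064 arrays were below all Vehicle arrays, and replicate 1, which stood apart, was the lowest. The log2 difference was -2.11 (standard error 0.37), or 4.31 fold lower, and no test of it is given weight because this fall put the gene on the list. Without WT GW4064 replicate 1 and FXR WB KO GW4064 replicate 3 it was -1.65 (adjusted p = 0.134, limma, a setting chosen after seeing the data).

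In Liver FXR KO livers, likewise as a description, Dnase2a read 10.64, 10.58 and 10.91 with Vehicle and 9.18, 9.30 and 8.60 with GW4064, again with no overlap. The log2 difference was -1.69 (standard error 0.37, 95% interval -2.46 to -0.91), or 3.22 fold lower, and it did not pass over all genes (adjusted p = 0.305, limma).

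In FXR WB KO livers Dnase2a read 11.10, 11.67 and 10.94 with Vehicle and 10.43, 11.31 and 11.26 with GW4064. These groups overlapped, with a log2 difference of -0.24 (standard error 0.37, 95% interval -1.01 to 0.53, adjusted p = 0.952, limma). Without FXR WB KO GW4064 replicate 1 it was 0.044. The effect in Liver FXR KO minus that in FXR WB KO was -1.45 (standard error 0.52, 95% interval -2.54 to -0.35, adjusted p = 0.947, limma), a comparison added after the values were seen, which holds the values that may have chosen the gene. The effect in WT minus that in Liver FXR KO was -0.42 (standard error 0.52), and without WT GW4064 replicate 1 it was 0.038. With Vehicle, the 3 genotypes differed little beside this spread, with means of 10.96 in WT, 10.71 in Liver FXR KO and 11.24 in FXR WB KO. A single probe set reads this gene, of the type whose probes may also match other transcripts, so no other probe set could be set beside it.

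Genes known as FXR targets, by activation or through SHP, had these values in the same arrays. Cyp8b1, the hydroxylase for cholic acid, had GW4064 differences of -2.44 in WT, -0.87 in Liver FXR KO and -0.34 in FXR WB KO, and Cyp7a1, the first enzyme of bile acid synthesis, of -2.87, -0.98 and 0.32. Nr0b2, which encodes the repressor SHP, had differences of 1.85, 0.91 and -0.75. Abcb11, the bile salt export pump, had -0.04, -0.09 and -0.32. In WT, Cyp8b1 and Nr0b2 passed (adjusted p = 0.0433 for both, limma), whereas Cyp7a1 (0.111) and Abcb11 (0.955) did not, and in Liver FXR KO none of the 4 passed (smallest adjusted p = 0.894). The 12 measured genes within 100 kb of Dnase2a had GW4064 differences in WT from -0.16 for Prdx2 to 0.43 for Junb, and none passed (smallest adjusted p = 0.362, limma). In Liver FXR KO they ranged from -0.23 for Best2 to 0.24 for Syce2. The nearest of them, Klf1 and Mast1, lie 6.77 and 3.10 kb from its start.

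**Figure D2:**
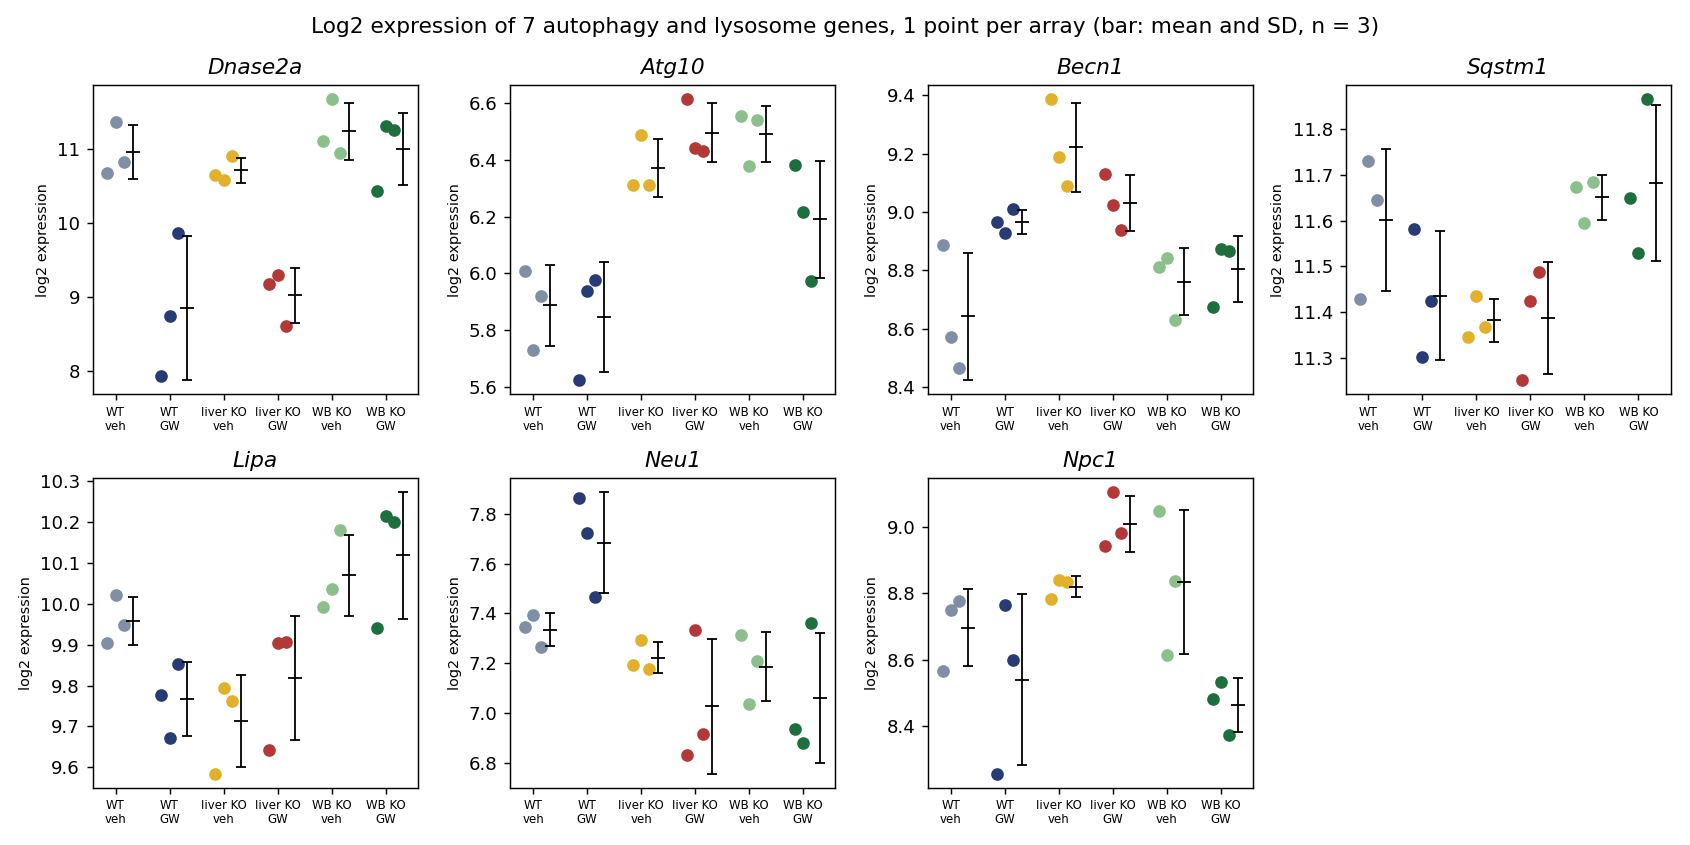
Log2 expression (vertical axis, a separate scale for each gene) of 7 members in the 6 groups (horizontal axis; veh, Vehicle; GW, GW4064; liver KO, Liver FXR KO; WB KO, FXR WB KO), 1 point per array, with the mean and SD beside the points (n = 3). Dnase2a is low in the WT and Liver FXR KO arrays with GW4064, and Atg10 is lowest in the WT groups.

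Of the 4 genes that start autophagy, Becn1, which encodes Beclin 1 of the lipid kinase complex (chromosome 11, 101288258 to 101302286), rose in Liver FXR KO livers with Vehicle. It read 8.89, 8.57 and 8.47 in WT, 9.39, 9.19 and 9.09 in Liver FXR KO and 8.81, 8.84 and 8.63 in FXR WB KO. The Liver FXR KO arrays lay above all arrays of both other genotypes with Vehicle. Against WT the log2 difference was 0.58 (standard error 0.11, adjusted p = 0.0141, limma), and FXR WB KO against Liver FXR KO gave -0.46 (adjusted p = 0.0687). The rise belonged to 1 of 4 probe sets. The next brightest, with a mean of 8.48 against 8.90 for the one kept, differed by 0.09 (unadjusted p = 0.221), the other 2, at 4.16 and 3.99, by 0.0004 and -0.0042, and the mean of the 4 by 0.17 (adjusted p = 0.277). It was also lost without WT Vehicle replicate 2 or 3 or Liver FXR KO Vehicle replicate 1 or 2. With GW4064, Becn1 read 8.96, 8.93 and 9.01 in WT (difference 0.33, adjusted p = 0.222), 9.13, 9.02 and 8.94 in Liver FXR KO (-0.19) and 8.68, 8.87 and 8.87 in FXR WB KO (0.04). Here too the probe sets differed. The next brightest gave 0.07, -0.11 and -0.23 in the same order of genotypes (unadjusted p = 0.330, 0.173 and 0.00758, limma).

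The kinase genes Ulk1 and Ulk2 and the lipid kinase gene Pik3c3 did not pass in any comparison. Ulk2 had the larger difference among them, 0.48 in Liver FXR KO against WT, with 9.52, 9.43 and 9.45 against 9.13, 8.95 and 8.87, and no overlap. Its 3 probe sets gave 0.53, 0.48 and 0.23. It passed only in the fit without the 2 arrays that stood apart, in which Atg10 and Becn1 also passed in this comparison. By their brightest probe sets, all 4 genes of this step were above 0 in both knockouts against WT. Their medians were 0.33 in Liver FXR KO and 0.13 in FXR WB KO, beside -0.0092 and -0.0120 for all genes. In FXR WB KO none of the 4 passed (smallest adjusted p = 0.567, limma). In Liver FXR KO the median includes the Becn1 value that the other probe sets of Becn1 did not share. With GW4064 in FXR WB KO, Ulk1 had the largest difference of the step, -0.38, where the arrays at 8.41, 8.98 and 8.62 overlapped those with Vehicle at 9.11, 8.94 and 9.08.

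Among the 12 genes of conjugation and the LC3 family, Atg10, which encodes the enzyme that joins ATG12 to ATG5 (chromosome 13, 90935348 to 91224725), rose in FXR WB KO livers. With Vehicle it read 6.01, 5.73 and 5.92 in WT, 6.31, 6.49 and 6.31 in Liver FXR KO and 6.56, 6.38 and 6.54 in FXR WB KO. Both knockouts lay above WT without overlap. The log2 difference from WT was 0.61 in FXR WB KO (standard error 0.12, adjusted p = 0.0149, limma) and 0.48 in Liver FXR KO (standard error 0.12, adjusted p = 0.0602). The second passed in 4 of 11 other settings, among them array weights and quantile normalization, and the first was lost without WT Vehicle replicate 2 or FXR WB KO Vehicle replicate 1 or 3. With GW4064, the arrays read 5.62, 5.94 and 5.98 in WT, 6.62, 6.44 and 6.43 in Liver FXR KO and 6.38, 6.22 and 5.97 in FXR WB KO. The last of these, replicate 3, stood apart and lay within the WT range. In the F-test over the 6 groups its adjusted p was 0.00402, and it passed under all alternatives and with any array left out. A single probe set reads it.

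The other 11 genes of this step, from Atg3 to Wipi1, did not pass in any comparison by their brightest probe set, but for Atg5 and Wipi1 the probe sets differed. Atg5, which encodes the target of ATG12, had -0.02 in Liver FXR KO against WT by the brightest of its 3 probe sets (mean level 8.63), and -0.30 (mean 8.58, unadjusted p = 0.00535) and -0.51 (mean 7.67, unadjusted p = 0.000618) by the others. In FXR WB KO the same probe sets gave 0.06, -0.29 and -0.31. Wipi1, a lipid-binding protein of the forming membrane, had 0.09 in Liver FXR KO by the brightest of 5 probe sets and 0.30, 0.41, 0.48 and 0.63 by the dimmer ones (unadjusted p from 0.00044 to 0.0118). In FXR WB KO its brightest probe set gave -0.03 and the others gave 0.01, 0.29, 0.34 and 0.47. When all probe sets were tested, none of these passed in either knockout (smallest adjusted p = 0.0526, limma), but the mean of the 5 Wipi1 probe sets did in Liver FXR KO, at 0.38 (adjusted p = 0.0433), and the mean of the 3 Atg5 probe sets did not, at -0.28 (adjusted p = 0.166). The largest differences with GW4064 in WT, for which they are shown, were Map1lc3b, an LC3 gene, at 0.33, with 11.92, 11.50 and 11.16 against 11.05, 11.24 and 11.31, and Gabarapl1, a gene of the same family, at -0.31, with 11.19, 11.49 and 11.43 against 11.45, 11.91 and 11.68. Both pairs of groups overlapped, and the 2 genes differed in sign. Their differences in Liver FXR KO were -0.18 and -0.01, and in FXR WB KO -0.13 and -0.28.

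Sqstm1 encodes p62, the receptor that binds ubiquitin on cargo and LC3 on the membrane (chromosome 11, 50200152 to 50210820). With Vehicle it read 11.43, 11.73 and 11.65 in WT, 11.34, 11.44 and 11.37 in Liver FXR KO and 11.67, 11.59 and 11.68 in FXR WB KO. With GW4064 the values were 11.58, 11.30 and 11.42 in WT, 11.25, 11.42 and 11.49 in Liver FXR KO and 11.65, 11.53 and 11.87 in FXR WB KO. The GW4064 difference in WT was -0.17 (95% interval -0.38 to 0.05, adjusted p = 0.544, limma), with overlapping groups. Liver FXR KO differed from WT by -0.22 (adjusted p = 0.389) and FXR WB KO from Liver FXR KO by 0.27 (adjusted p = 0.273), the second without overlap. Nbr1, the other cargo receptor, had differences between -0.17 and 0.04 in the 6 comparisons of 2 groups.

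**Figure D3:**
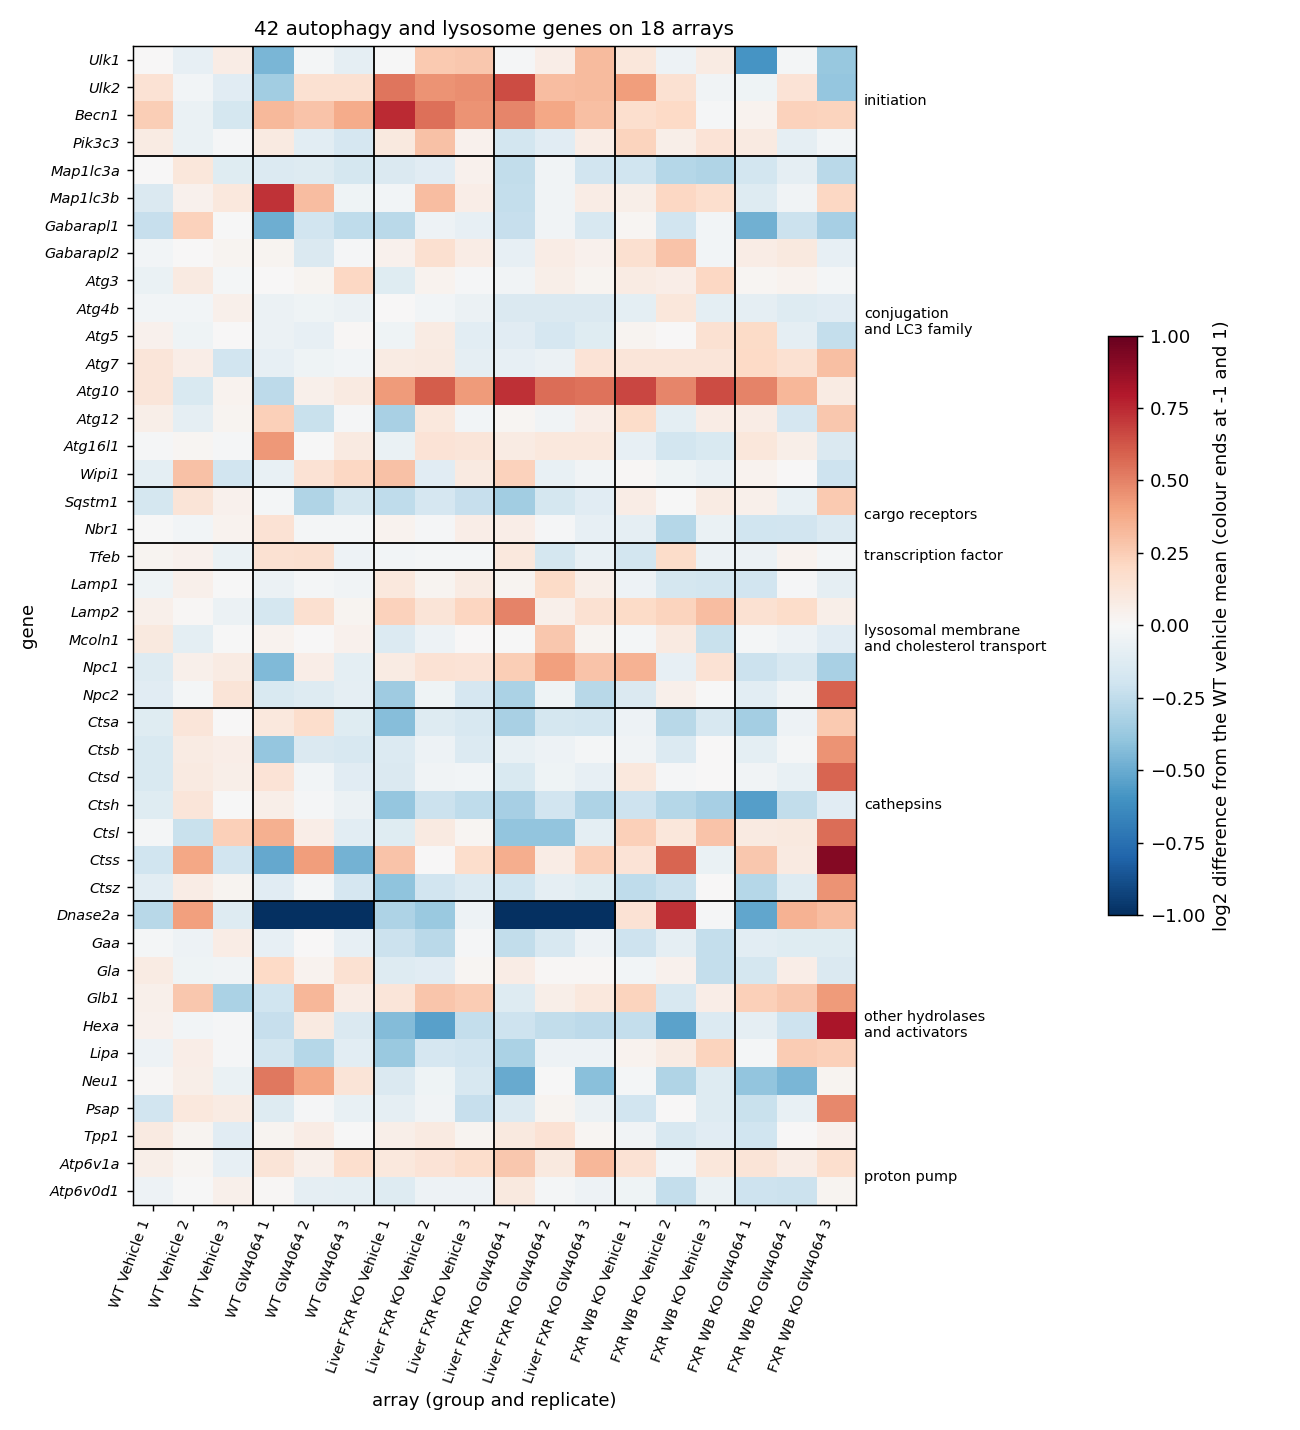
Log2 difference from the WT Vehicle mean (colour, ending at -1 and 1) of the 42 members (rows, grouped by role) on the 18 arrays (columns, grouped by treatment and genotype). Dnase2a is low in all WT and Liver FXR KO arrays with GW4064, and FXR WB KO GW4064 replicate 3 is high for most cathepsins.

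Of the 5 genes of the lysosomal membrane and of cholesterol transport, Npc1, which moves cholesterol out of the lysosome, passed in the F-test. With Vehicle it read 8.57, 8.75 and 8.78 in WT, 8.78, 8.84 and 8.84 in Liver FXR KO and 9.05, 8.61 and 8.84 in FXR WB KO. With GW4064 it read 8.26, 8.76 and 8.60 in WT, 8.94, 9.10 and 8.98 in Liver FXR KO and 8.48, 8.53 and 8.37 in FXR WB KO. The GW4064 arrays thus lay above the Vehicle arrays in Liver FXR KO (difference 0.19, unadjusted p = 0.132) and below them in FXR WB KO (-0.37, unadjusted p = 0.00674, adjusted p = 0.784). Lamp1 and Lamp2, the most abundant proteins of that membrane, Mcoln1, its calcium channel, and Npc2, the soluble partner of Npc1, did not pass in any comparison. Lamp2 had the largest of their differences in the knockouts against WT, 0.24 in FXR WB KO and 0.19 in Liver FXR KO.

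None of the 7 cathepsin genes, which encode the proteases and peptidases of the lysosome, passed in any comparison or in the F-test. Ctsh, an aminopeptidase, read 11.06, 11.30 and 11.18 in WT with Vehicle and lay below these in all arrays of Liver FXR KO (10.80, 10.97 and 10.93) and of FXR WB KO (10.98, 10.90 and 10.85). Its log2 differences were -0.28 and -0.27 (adjusted p = 0.214 and 0.225, limma). FXR WB KO GW4064 replicate 3 was the highest of the 18 arrays for 6 of 7 cathepsins, for 10 of 23 lysosomal members (43.5%), for 13 of all 42 members and for 9.26% of all genes. Ctss, a cathepsin of phagocytes, read 10.04 there and between 8.61 and 9.70 elsewhere. In the same array 8 of 13 measured macrophage markers were the highest of the 18, and their median lay 0.88 above the WT Vehicle mean, against -0.43 to 0.59 in the other 17. The cathepsin median was 0.45 in this array and between -0.20 and 0.09 in the others. The part of macrophages in these values was not tested. The median of 8 stellate cell and fibroblast markers was also the highest of the 18 in this array, at 0.85, against -0.82 to 0.53 in the others.

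With Vehicle, 12 of 13 macrophage markers were above 0 against WT in Liver FXR KO and likewise 12 in FXR WB KO (medians 0.31 and 0.33), and their median per array ranged from 0.10 to 0.59 in the knockouts, against -0.10 to 0.12 in WT. The median of all genes was -0.0092 in Liver FXR KO and -0.0120 in FXR WB KO against WT. Of the macrophage markers, 1 rose in FXR WB KO (Mpeg1, adjusted p = 0.0118, limma), where 1.14% of all genes passed. None rose in Liver FXR KO, where 0.879% of all genes passed. In FXR WB KO, 7 of 8 stellate cell and fibroblast markers were above 0 as well (median 0.50), of which Pdgfrb rose (adjusted p = 0.0423), and so were 8 of 8 endothelial markers (median 0.29, none past the threshold), whereas both lists had 4 of 8 above 0 in Liver FXR KO (medians 0.08 and 0.03). The part of these cells in the member values was not tested. The 23 lysosomal members had medians of -0.08 and -0.06 in the same comparisons, with 7 and 9 of them above 0. Ctss was at 0.15 and 0.22, the highest of the cathepsins in both, and the other 6 cathepsins were below 0 in Liver FXR KO, with Ctsl at -0.0047. With GW4064 in WT the median of all genes was -0.0040. There, 8 of 8 endothelial markers (median -0.41) and 7 of 8 stellate cell and fibroblast markers (median -0.40) were below 0. None passed (limma), with 7 and 5 at an unadjusted p under 0.05 (12.6% of all genes). The medians were -0.02 and -0.09 in Liver FXR KO and -0.31 and 0.04 in FXR WB KO. WT GW4064 replicate 1 was the lowest array for both, at -0.81 and -0.82. The part of these cells was not tested.

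**Figure D4:**
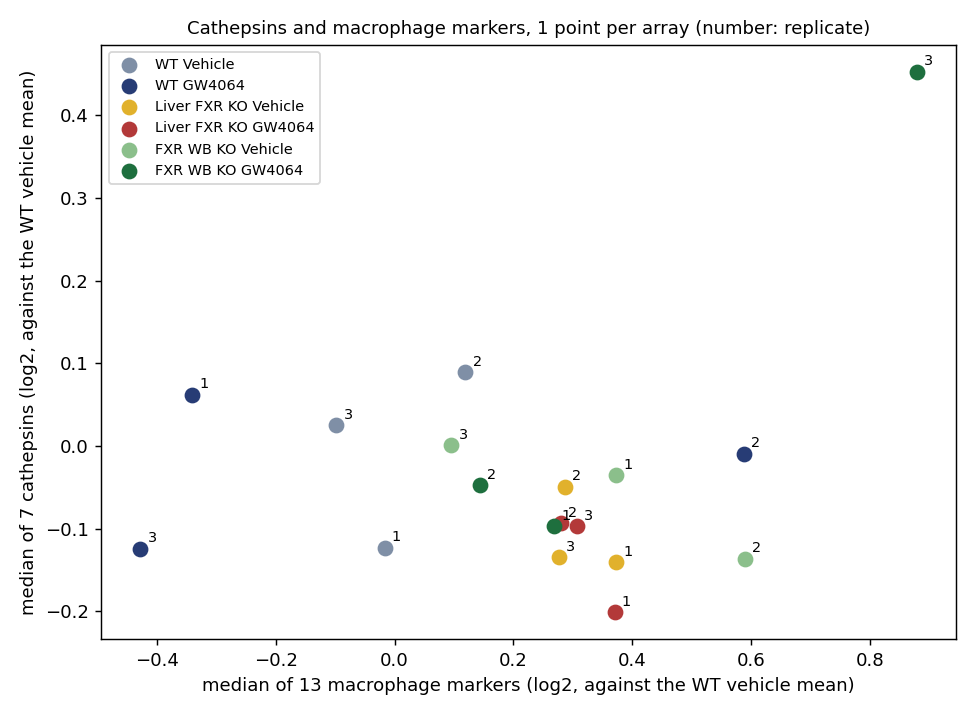
Median log2 difference from the WT Vehicle mean of 7 cathepsin genes (vertical axis) and of 13 macrophage markers (horizontal axis), 1 point per array, coloured by group and numbered by replicate. FXR WB KO GW4064 replicate 3 lies at 0.45 and 0.88, away from the other 17 arrays.

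Of the 9 other hydrolases and activators, which include Dnase2a, Lipa, the acid lipase that frees cholesterol and fatty acids from lipoproteins (chromosome 19, 34492316 to 34527474), passed in the F-test. With Vehicle it read 9.90, 10.02 and 9.95 in WT, 9.58, 9.79 and 9.76 in Liver FXR KO and 9.99, 10.04 and 10.18 in FXR WB KO. With GW4064 the arrays read 9.78, 9.67 and 9.85, 9.64, 9.90 and 9.91, and 9.94, 10.22 and 10.20 in the same order of genotypes. The Liver FXR KO arrays with Vehicle lay below those of both other genotypes. The difference was -0.24 from WT (adjusted p = 0.295, limma) and 0.36 for FXR WB KO against Liver FXR KO (adjusted p = 0.115). All 3 probe sets of Lipa had these signs, between -0.38 and -0.24 in the first and between 0.31 and 0.36 in the second.

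Neu1, the sialidase of the lysosome (chromosome 17, 34931253 to 34937297), passed in the F-test as well. In WT it read 7.35, 7.40 and 7.27 with Vehicle and 7.87, 7.72 and 7.47 with GW4064, without overlap, a difference of 0.35 (standard error 0.14, adjusted p = 0.309, limma). In Liver FXR KO it read 7.19, 7.29 and 7.18 with Vehicle and 6.83, 7.33 and 6.91 with GW4064 (-0.20). The FXR WB KO arrays read 7.31, 7.04 and 7.21 and then 6.94, 6.88 and 7.36 (-0.13). The WT effect exceeded that of Liver FXR KO by 0.55 (unadjusted p = 0.0142, adjusted p = 0.582), and its 2 dimmer probe sets had WT differences of 0.19 and 0.08. Hexa, a subunit of hexosaminidase, had the lowest difference of any member in both knockouts with Vehicle, -0.41 in Liver FXR KO and -0.30 in FXR WB KO (adjusted p = 0.389 and 0.523). Its FXR WB KO value with GW4064, 0.48, rested on replicate 3, which read 10.48 against 9.57 and 9.46. Gaa, Gla, Glb1, Psap and Tpp1 did not pass in any comparison, nor did Atp6v1a and Atp6v0d1 of the proton pump, whose differences all lay between -0.12 and 0.14 in the 6 comparisons of 2 groups.

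A further list of 94 genes of the same pathways was measured for 75. With GW4064, none of the 75 passed in any genotype (limma), with 13 at an unadjusted p under 0.05 in WT, 3 in Liver FXR KO and 7 in FXR WB KO, beside 12.6%, 5.02% and 6.25% of all genes. With Vehicle, 1 of the 75 fell in FXR WB KO against WT, beside 1.14% of all genes, and none passed in the other 2 comparisons, where 10 and 6 were at an unadjusted p under 0.05 (12.6% and 12.2% of all genes). A single call is near that background. The one that fell was Arsa, the lysosomal sulfatase that degrades sulfatide. It read 8.23, 8.80 and 8.43 in WT, 7.65, 7.93 and 8.07 in Liver FXR KO and 7.78, 7.63 and 7.79 in FXR WB KO, so that both knockouts were below WT. The differences were -0.75 in FXR WB KO (standard error 0.16, adjusted p = 0.0299) and -0.61 in Liver FXR KO (adjusted p = 0.0924). The first was lost without any 1 of WT Vehicle replicates 2 and 3 and the FXR WB KO Vehicle arrays. In the F-test 5 of the 75 passed, namely Ctsc, Arsa, Scarb2, Galc and Atg14, with adjusted p-values from 0.00654 to 0.0151, a count near the 6.08% of all genes. Scarb2, which carries glucocerebrosidase to the lysosome, read 10.41 to 10.77 in the 6 FXR WB KO arrays and 10.76 to 11.24 in the others. Galc, which degrades galactosylceramide, read 4.39, 4.43 and 4.46 in WT with GW4064 and 4.51 to 5.04 elsewhere. These values are close to the floor, since the deleted Nr1h4 read 3.98 to 4.69 in the knockout arrays. Atg14, a subunit of the Beclin 1 complex, read 6.99, 7.41 and 7.16 in FXR WB KO with GW4064 and 7.33 to 8.06 elsewhere. Ctsc, a cathepsin that activates granule proteases of neutrophils, read 10.38, 10.52 and 10.58 with Vehicle and 11.96, 11.65 and 10.93 with GW4064 in WT, a difference of 1.02 (adjusted p = 0.0801), against 0.06 in Liver FXR KO and 0.17 in FXR WB KO. The median of 4 neutrophil markers, as a log2 difference from the WT Vehicle mean, was 1.55, 0.58 and -0.05 in those 3 WT arrays with GW4064, in the same order as Ctsc. Of the 4, S100a8 (7.56, 5.83 and 4.30) and S100a9 (7.66, 6.00 and 4.97) followed that order, while Mmp8 and Cxcr2 differed by 0.07 and -0.13 between the WT groups, and their part in its value was not tested.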

How the data were processed

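Livers of 18 mice were measured on 1 Affymetrix array each. The authors ran RMA (version not given in the sources used here) and deposited log2 expression values, to which nothing further was done. The methods name another array than the one whose probe sets are in the table, so symbols came from the annotation of the deposited platform. Of 22690 probe sets, 20393 had 1 symbol, and the brightest stood for each of 12394 genes, dim genes included. Members and lists were chosen with earlier results of these data known. Array values are given for Dnase2a, Sqstm1 and each member that passed, and for Arsa of the further pathway genes, with ranges for those that passed the F-test alone. Members with the largest differences of their role serve as examples, and Ctsc, Ctss, Glb1, Mpeg1, Pdgfrb, S100a8, S100a9 and the probe sets of Atg5 and Wipi1 were named after their values were seen.

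Tests used limma 3.58.1 in R 4.3.3 with 6 group means and 12 residual degrees of freedom, two-sided, at a Benjamini-Hochberg adjusted p of 0.05 over the 12394 genes. The fit was tested on simulated data. With 3 arrays per group, an exact test of single genes cannot go below p = 0.1, and precision is limited by this number. Alternatives changed the groups fitted, the variance prior, the array weights, the scaling (median, quantile), the filter (40% dimmest genes removed), and the treatment of probe sets, added a block for replicate number, changed the test (the methods' unpaired one), or left out an array. Removing both arrays that stood apart, and comparing GW4064 effects between knockouts, were added after seeing the data.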

Additional observations from a re-analysis of the deposited data

Results flagged for a closer look

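For 2 members the GW4064 effect had opposite directions in the 2 knockouts, with no overlap between GW4064 and Vehicle arrays in either. In neither member did the test of the difference pass over all genes (limma). How many of all genes meet the same rule was not counted, so this number carries no weight. Both members were picked by the separation of these same arrays, so their unadjusted p-values are a description. For Npc1, the effect in Liver FXR KO minus that in FXR WB KO was 0.56 (standard error 0.17, unadjusted p = 0.00426, adjusted p = 0.840). For Glb1, a lysosomal galactosidase, it was -0.48 (standard error 0.21, unadjusted p = 0.0347, adjusted p = 0.970), and its arrays read 6.53, 6.69 and 6.67 with Vehicle and 6.28, 6.47 and 6.51 with GW4064 in Liver FXR KO, and 6.64, 6.25 and 6.48 with Vehicle and 6.65, 6.68 and 6.84 with GW4064 in FXR WB KO.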

How the results depend on the processing

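The count of members in WT with GW4064, 1 in the reported fit, was 0 in the fit on those groups only, with the trended prior, by the methods' t-test and without the 2 arrays that stood apart, and between 0 and 1 with an array left out. Its gene, Dnase2a, was at -2.11 in the first 3 of these (adjusted p = 0.365, 0.0906 and 0.706) and at -1.65 in the last (adjusted p = 0.134), and it ranged from -2.62 to -1.65 with an array left out, where it was lost in 14 of 18 cases. In Liver FXR KO with GW4064 the count was 1 in the fit on those groups only and with array weights. For Liver FXR KO against WT it was 2 with array weights, quantile normalization or without the dimmest genes, 0 by the methods' t-test, 3 without the 2 arrays that stood apart, and between 0 and 2 with an array left out. With the mean of probe sets it stayed at 1, with Wipi1 in place of Becn1. For FXR WB KO against WT it was 0 by the methods' t-test and between 0 and 1 with an array left out. Between the knockouts it was 1 with array weights and between 0 and 1 with an array left out. For WT minus FXR WB KO it was between 0 and 1 with an array left out (1 without WT GW4064 replicate 3). The F-test count of 6 was 3 with the mean of probe sets and between 2 and 5 with an array left out. No share of all genes called in the same setting is set beside these counts. They show how far the calls depend on the fit and are not read as results about the members. The 40% filter removed 1 member, Gla. Dnase2a changed sign in FXR WB KO without FXR WB KO GW4064 replicate 1 (range -0.39 to 0.044 with an array left out) and in WT minus Liver FXR KO without WT GW4064 replicate 1 (range -0.93 to 0.038) or without both arrays that stood apart (0.038). The cause was not tested.

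With the replicate number as a block, the counts were 1, 0 and 0 with GW4064 in WT, Liver FXR KO and FXR WB KO, 1, 1 and 0 for the comparisons of genotypes and 4 in the F-test, where Neu1 (adjusted p = 0.0726) and Npc1 (adjusted p = 0.0651) were lost. These counts too stand without the share of all genes called in that fit. Nothing in the labels says whether equal numbers pair the arrays, and the values do not decide it. Over 45 pairs of equal number the correlation of deviations ran from -0.229 to 0.339, with 13 over 0.1 and 16 below 0. For pairs of unequal number it ran from -0.317 to 0.237. Between Vehicle and GW4064, all pairs of equal number were above 0 in Liver FXR KO and in FXR WB KO, but not in WT.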
